A study of Mus musculus with 11 samples.

Results

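The genes described here are 10 of the 14604 gene symbols listed in the deposited table, namely the Janus kinases Jak1, Jak2 and Jak3, the signal transducers Stat3, Stat5a and Stat5b, and the feedback inhibitors Socs1, Socs2, Socs3 and Cish. They were chosen by symbol, and all 10 passed the filter on low values, as did 13897 genes in all. RNA was sequenced from regulatory T cells (Tregs), the Foxp3-expressing CD4+ cells that restrain other immune cells, sorted from MC38 tumors and from the spleens of the same tumor-bearing mice. MC38 is a mouse colon carcinoma line that was grafted into the mice. The sort took live CD4+GITR+CD25+ cells, so that Cd4, Tnfrsf18 (which encodes GITR) and Il2ra (which encodes CD25) were part of the choice of cells. There were 11 libraries, 6 of spleen Tregs and 5 of tumor-infiltrating Tregs (TI-Tregs). The WT mice carried the genotype CD177flox/flox and the KO mice CD177flox/flox/FOXP3-CreYFP, so every mouse carried the floxed Cd177 alleles and the KO mice alone carried a Cre driven by Foxp3, which acts only in cells that have expressed Foxp3. Spleen had 3 WT and 3 KO libraries, and tumor had 3 WT and 2 KO libraries. The study's methods describe its purchased C57BL/6 hosts of MC38 as young adult males, and give no separate age for these floxed mice. It is not stated whether libraries with the same number came from one mouse, and the p-values measure the spread between these libraries. Cd177 is not listed in the table, and the genotype labels could not be checked against it.

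JAK-STAT signaling carries the message of cytokines from the cell surface to the nucleus. A cytokine joins its receptor chains, the JAKs bound to those chains phosphorylate the receptor and then a STAT, and paired STATs move to the nucleus and bind short palindromic DNA motifs. In Tregs, IL-2 acts through JAK1, JAK3 and STAT5 and supports FOXP3 expression, while IL-6, IL-10 and related cytokines act through STAT3. SOCS proteins and CIS, the product of Cish, are themselves induced by STATs and dampen the receptor that induced them. STAT5 and STAT3 are both known as upstream regulators of Bcl2l1, which encodes the survival protein BCL-XL, and of Bcl2. Transcript levels of JAKs and STATs do not measure their phosphorylation, which was not assayed in these libraries.

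A STAT-binding motif, TTCNNNGAA, was looked for in RefSeq promoter windows of GRCm38.p6 that run from 250 bases before to 50 bases after a start site. The motif reads the same on both strands. Windows were given for 9 of the 10 genes, 11 windows in all, and for Socs2 none was matched. Of these, 2 windows held the motif, those of Cish and Socs3, and 8.3% of all 32851 windows held it. Only 0.457% of all windows held it at least 2 times, as the Cish window did. Both stretches are shown because they belong to feedback genes whose levels differed between the tissues, with the motif in capitals. The Cish stretch is chr9:107296434-107296683 on the plus strand, and its matches, which do not overlap, begin at bases 1 and 12 counted from the start site. The Socs3 stretch is chr11:117969367-117969616 on the minus strand, and its match begins at base -154. Both stretches lie inside the spans that GENCODE M21 gives for these genes. The RefSeq start sites used here are thus not the outermost ones of the GENCODE models. These are matches of letters and were not tested as binding sites.
Cish: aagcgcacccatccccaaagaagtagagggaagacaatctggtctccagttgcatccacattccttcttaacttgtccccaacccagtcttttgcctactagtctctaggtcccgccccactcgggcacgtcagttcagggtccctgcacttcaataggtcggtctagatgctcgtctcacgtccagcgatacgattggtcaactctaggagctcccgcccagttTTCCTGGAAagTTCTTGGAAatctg
Socs3: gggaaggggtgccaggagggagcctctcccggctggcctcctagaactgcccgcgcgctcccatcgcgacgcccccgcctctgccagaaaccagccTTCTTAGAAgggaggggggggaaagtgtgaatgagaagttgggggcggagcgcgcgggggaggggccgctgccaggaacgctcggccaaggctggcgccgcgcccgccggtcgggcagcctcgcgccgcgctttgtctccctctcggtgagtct

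The values are log2(n + 1), where n is the authors' expression value for a gene in a library. The scaling of n and the length correction behind it are not stated, so levels are compared between libraries and not between genes. The sum of n was 712832 to 844331 in spleen libraries and 1103159 to 1304548 in tumor libraries, and these sums are not read depths. The study states only an approximate read depth common to all libraries, and the sums of n lie far below it. Its methods speak of estimated counts that were processed with sleuth, but the values could not be taken as raw counts. The depth of each library is thus not known here, and the spread between libraries sets the precision. The T-cell lineage markers, such as Cd3e and Lck, had a summed level (log2 of the sum of n) of 11.14 to 11.25 in spleen and 10.22 to 10.95 in tumor, and 10 of 12 fell. All 18 tested myeloid markers rose, with a summed level of 8.37 to 9.33 in spleen and 13.81 to 14.42 in tumor. Lyz2, the lysozyme of macrophages and neutrophils, had a level of 4.75 ± 1.18 in spleen (SD, n = 6) and 12.35 ± 0.30 in tumor (SD, n = 5). Apoe, an apolipoprotein of macrophages, had 5.93 ± 0.42 and 11.05 ± 0.28. S100a8 and S100a9 were not listed. Of 7 tested fibroblast markers, 6 rose, with a summed level of 2.36 to 2.66 in spleen and 9.30 to 10.43 in tumor, where Col3a1 had 8.84 ± 0.52 and Sparc 7.94 ± 0.59. Dcn and Lum were not listed. Cells of these types lie outside the CD4+GITR+CD25+ gate. Of the 9 Treg markers 4 rose and 4 fell, and Foxp3 itself had a level of 6.35 ± 0.30 in spleen and 5.50 ± 0.55 in tumor. In tumor Foxp3 was 5.54, 4.72 and 5.24 in WT and 5.87 and 6.12 in KO. The other marker lists gave 5 rises and 1 fall among 8 CD8 T and NK markers, 1 rise and 4 falls among 6 B-cell markers, 1 and 7 among 8 erythroid and platelet markers, 2 and 2 among 4 endothelial markers and 1 and 1 among 3 epithelial markers. Fewer cells of a type and less RNA per cell cannot be told apart in bulk libraries. The part of these other cells in the differences given here was not tested.

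Between TI-Tregs and spleen Tregs, 6 of the 10 genes differed. Socs3, Stat3, Jak2 and Cish were higher in tumor, Jak1 and Stat5b were lower, and Jak3, Stat5a, Socs1 and Socs2 did not pass the test. Rises and falls were called by limma with Benjamini-Hochberg adjustment over all 13897 genes, at an adjusted p below 0.05. By that rule 43.1% of all genes were called higher and 35.9% lower, so that 4 higher and 2 lower among 10 genes is not more than the background. The libraries of the tissues did not overlap for 3 genes that were higher (Socs3, Stat3, Jak2), where the share over all genes was 35.2%, and for 1 that was lower (Jak1), where it was 28.4%. The median tumor minus spleen difference was 0.23 over the 10 genes and 0.08 over all genes tested. The summed level of the 10 genes was 9.79 to 9.90 in spleen and 10.12 to 10.46 in tumor.

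**Figure D1:**
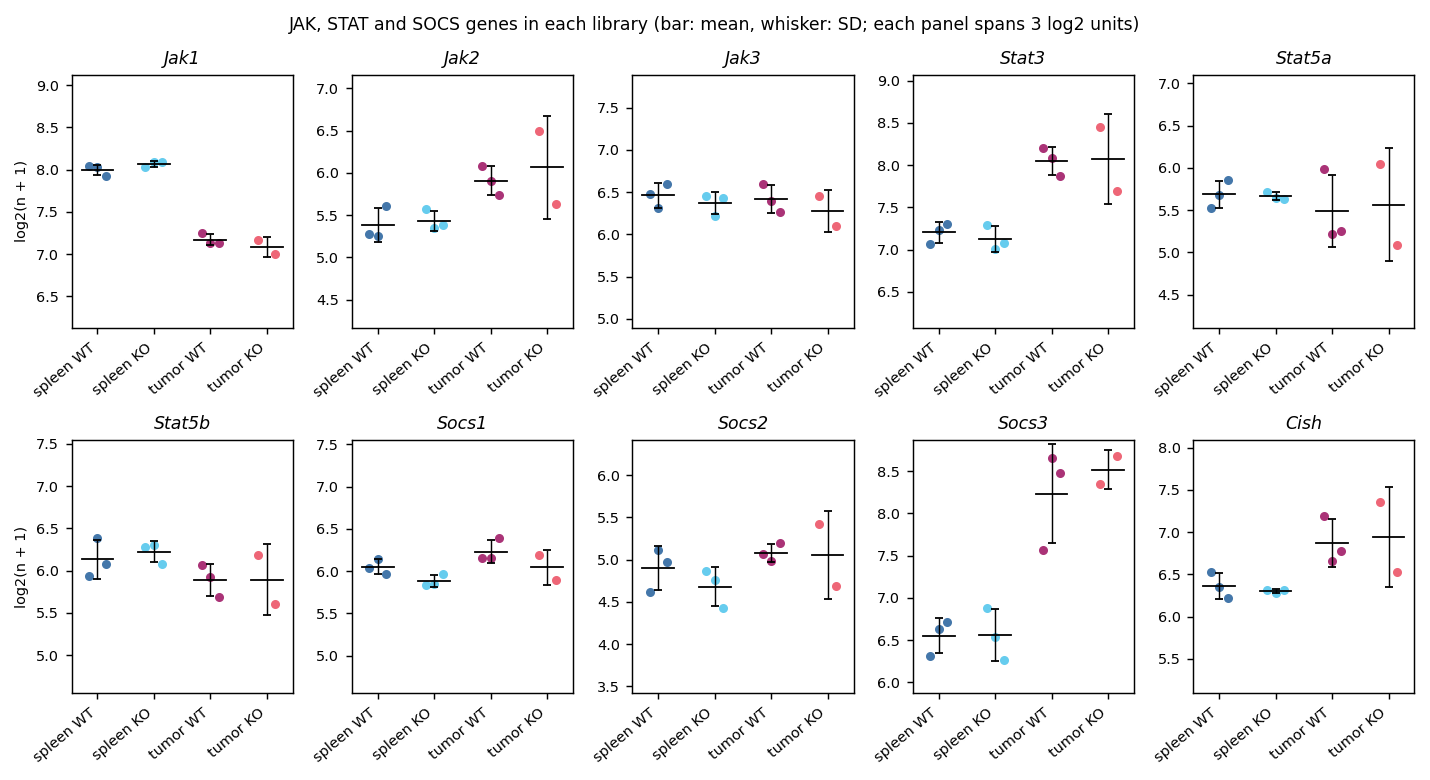
Level of each of the 10 genes, as log2(n + 1) on the vertical axis, in every library, with WT and KO libraries of spleen (blue) and tumor (red and purple) set apart; each point is 1 library, the bar is the mean, and the whisker is the SD. Socs3, Stat3 and Jak2 lie higher and Jak1 lower in all 5 tumor libraries than in any of the 6 spleen libraries, while Cish overlaps by 1 library on each side.

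Among the kinases, Jak1 went down and Jak2 up. JAK1 pairs with JAK3 under IL-2 family receptors and also serves the gp130, IL-10 and interferon receptors. In spleen its transcript had a level of 7.93 in the lowest, 8.03 in the median and 8.09 in the highest library. In tumor it had 7.24, 7.13 and 7.13 in the WT libraries and 7.17 and 7.00 in the KO libraries. All tumor libraries were low and close together, and the tissues did not overlap. The mean fell from 8.03 ± 0.06 in spleen (SD, n = 6) to 7.13 ± 0.09 in tumor (SD, n = 5), a log2 difference of -0.90 with a standard error of 0.055 (limma with Benjamini-Hochberg adjustment, adjusted p = 9.68e-09). An exact two-sided permutation test over the 462 possible assignments of the libraries gave p = 0.0043, the smallest p it can give. This test and the main fits treat the libraries as independent, although tumors and spleens came from the same mice. Centred on the T-cell lineage markers, Jak1 was lower by less and did not pass, at -0.14 (adjusted p = 0.31).

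JAK2 serves single-chain hormone receptors, the shared beta chain of the GM-CSF and IL-3 receptors, and the interferon-gamma and IL-12 receptors. Its transcript had a level of 5.26, 5.36 and 5.62 in the lowest, median and highest spleen library. In tumor it had 6.09, 5.90 and 5.74 in WT and 6.50 and 5.64 in KO. The lowest tumor library lay just above the highest spleen library, and the KO libraries held both the highest and the lowest tumor value. The mean was 5.41 ± 0.15 in spleen and 5.97 ± 0.34 in tumor, a rise of 0.57 with a standard error of 0.136 (limma with Benjamini-Hochberg adjustment, adjusted p = 0.0019; exact two-sided permutation p = 0.0043), which was 0.23 and did not pass after quantile normalization (adjusted p = 0.15) and became -0.05 when libraries were scaled to equal totals. Jak3, the kinase bound to the common gamma chain of the IL-2 receptor family, had 6.22 to 6.60 in spleen and 6.10 to 6.60 in tumor. Those ranges nearly coincide. Its difference was -0.05, with a 95% interval of -0.25 to 0.15 (adjusted p = 0.60 by limma with Benjamini-Hochberg adjustment), and its sign turned to 0.01 without the tumor KO 2 library. Jak3 passed as lower after quantile normalization (-0.52), median centring (-0.27) and scaling to equal totals (-0.67), and as higher on the scale of the T-cell markers (0.71).

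Among the STATs, Stat3 rose and Stat5b fell slightly. STAT3 is the main transducer of IL-6, IL-10, IL-21 and related cytokines. Its transcript had 7.00, 7.16 and 7.30 in the lowest, median and highest spleen library. In tumor it had 8.20, 8.08 and 7.88 in WT and 8.45 and 7.70 in KO. Every tumor library was above every spleen library. The mean rose from 7.16 ± 0.13 to 8.06 ± 0.29, by 0.90 with a standard error of 0.118 (limma with Benjamini-Hochberg adjustment, adjusted p = 1.27e-05; exact two-sided permutation p = 0.0043). The rise was smaller and did not pass after quantile normalization, at 0.12 (adjusted p = 0.41), or with equal library totals, at 0.27 (adjusted p = 0.053).

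STAT5A and STAT5B are close paralogs that carry the IL-2, IL-7 and IL-15 signal. Stat5a had 5.52, 5.66 and 5.85 in the lowest, median and highest spleen library. In tumor it had 5.98, 5.22 and 5.26 in WT and 6.04 and 5.09 in KO. Of the tumor libraries 2 lay above all spleen libraries and 3 lay below all of them. The difference was -0.16, with a 95% interval of -0.52 to 0.20 (adjusted p = 0.40). It passed as lower after quantile normalization (-0.48) and with equal totals (-0.77), and as higher on the scale of the T-cell markers (0.61). Stat5b had 5.93, 6.18 and 6.38 in the lowest, median and highest spleen library. Its tumor values were 6.06, 5.93 and 5.69 in WT and 6.19 and 5.60 in KO. The tissues overlapped, and the same WT 1 and KO 1 libraries were highest in tumor as for Stat5a. The mean was 6.18 ± 0.17 in spleen and 5.89 ± 0.25 in tumor, a difference of -0.28 with a standard error of 0.115 (limma with Benjamini-Hochberg adjustment, adjusted p = 0.037) that turned to 0.48 on the scale of the T-cell markers. It passed narrowly, and the exact two-sided permutation test gave p = 0.056. Leaving out spleen WT 2, spleen KO 1, spleen KO 2, tumor WT 2, tumor WT 3 or tumor KO 2 ended the call, at differences of -0.29 to -0.21.

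The feedback inhibitors differed in size of change. SOCS3 binds gp130 and related receptors and dampens IL-6 family signaling. Its transcript had 6.27, 6.58 and 6.88 in the lowest, median and highest spleen library. In tumor it had 7.56, 8.66 and 8.48 in WT and 8.35 and 8.68 in KO. Tumor WT 1 was the lowest tumor library and still lay above all spleen libraries. The mean rose from 6.56 ± 0.23 to 8.35 ± 0.46, by 1.79 with a standard error of 0.184 (limma with Benjamini-Hochberg adjustment, adjusted p = 1.27e-06; exact two-sided permutation p = 0.0043). Socs3 was higher and past the threshold in all 25 alternatives run, at 1.07 to 2.55. In the deposited values it was the largest difference among the 10 genes.

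CIS is the feedback inhibitor most directly tied to STAT5, and its promoter stretch with the paired motif is printed above. Cish had 6.22, 6.32 and 6.53 in the lowest, median and highest spleen library. In tumor it had 7.20, 6.66 and 6.78 in WT and 7.36 and 6.52 in KO. Tumor KO 2, at 6.52, lay just under the highest spleen library, and the other tumor libraries were above all of spleen. The mean was 6.34 ± 0.10 in spleen and 6.90 ± 0.36 in tumor, a rise of 0.57 with a standard error of 0.135 (limma with Benjamini-Hochberg adjustment, adjusted p = 0.0018; exact two-sided permutation p = 0.0087). It was 0.04 after quantile normalization (adjusted p = 0.81) and turned to -0.06 with equal library totals. SOCS1, which inhibits JAKs directly and limits interferon and IL-2 signaling, had a transcript level of 5.84 to 6.15 in spleen and 5.90 to 6.39 in tumor. These ranges overlap over most of their length. The Socs1 difference was 0.19, with a 95% interval of 0.0036 to 0.37 before adjustment (adjusted p = 0.058), and its sign turned with quantile normalization (-0.19), median centring (-0.03) and equal totals (-0.43), where it passed as lower (adjusted p = 0.00045). It passed as higher with genotype as a covariate (0.17, adjusted p = 0.049) and on the scale of the T-cell markers (0.95). Socs2, best known as a brake on growth hormone signaling, had 4.42 to 5.12 in spleen and 4.68 to 5.42 in tumor. Its difference was 0.28, with a 95% interval of -0.03 to 0.58 (adjusted p = 0.086), and it passed as lower with equal totals (-0.33) and as higher on the scale of the T-cell markers (1.04). As deposited, both passed when spleen WT 2 or tumor KO 2 was left out, at 0.22 and 0.25 for Socs1 and 0.34 and 0.38 for Socs2.

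The direction of several of these differences therefore depended on how libraries were scaled. The median difference over all genes was 0.08 in the deposited values. It was -0.16 under quantile normalization, -0.14 under median centring, -0.44 under equal totals and 0.84 on the scale of the T-cell markers. The number of the 10 genes called higher and lower was 4 and 2 as deposited. Quantile normalization gave 1 and 4, median centring 4 and 3, equal totals 1 and 6, and centring on T-cell markers 9 and 0. The share of higher genes among all genes called moved likewise, from 54.5% as deposited to 42.1%, 43.7%, 29.6% and 87.7%. Under these 5 scalings, Socs3 and Stat3 kept a positive sign and Jak1 kept a negative sign.

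**Figure D2:**
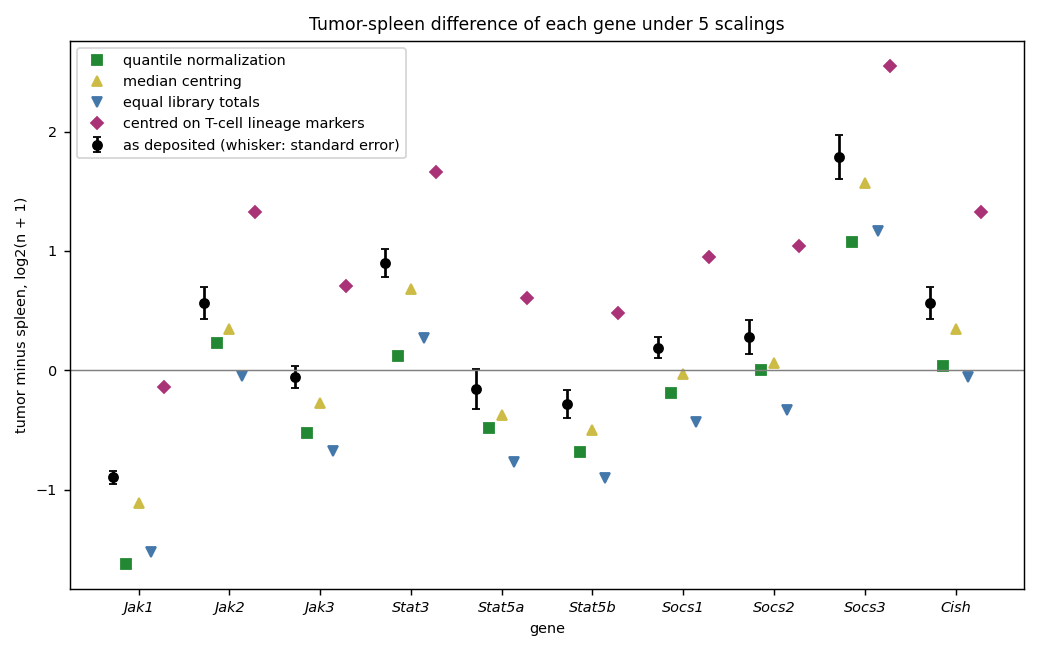
Tumor minus spleen difference of log2(n + 1) for each gene as deposited (black, whisker the standard error) and after 4 other scalings of the libraries. Socs3 lies between 1.07 and 2.55 and Jak1 between -1.62 and -0.14 in all of them, while Jak2 and Cish pass below 0 with equal library totals, at -0.05 and -0.06.

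A difference of 2 genes in the same library largely cancels a common scaling factor, and 6 such ratios were compared by exact two-sided permutation tests, with p-values adjusted over the 6. Jak2 minus Jak1 was -2.77 to -2.31 in spleen and -1.38 to -0.67 in tumor. Its mean moved from -2.62 ± 0.19 (SD, n = 6) to -1.16 ± 0.29 (SD, n = 5), a shift of 1.46 toward Jak2 (exact p = 0.0043, adjusted p = 0.0065). Jak3 minus Jak1 shifted by 0.84, from -1.62 ± 0.18 to -0.77 ± 0.11, with the same p-values. Relative to Jak1, both of the other kinases were thus higher in every tumor library than in any spleen library. Stat3 minus Stat5b was 0.99 ± 0.19 in spleen and 2.17 ± 0.06 in tumor, a shift of 1.18 toward Stat3 (exact p = 0.0043, adjusted p = 0.0065). In tumor this ratio lay between 2.10 and 2.26 in all 5 libraries, although both of its genes varied more than that. Socs3 minus Socs1 shifted by 1.60, from 0.59 ± 0.29 to 2.19 ± 0.52, with the same p-values. Cish minus Socs1 shifted by 0.38, from 0.37 ± 0.12 to 0.74 ± 0.34, with overlap between the tissues (exact p = 0.030, adjusted p = 0.036). It no longer passed without spleen WT 2, spleen WT 3, spleen KO 3, tumor WT 1, tumor KO 1 or tumor KO 2. Stat5a minus Stat5b was -0.50 ± 0.18 and -0.38 ± 0.26, and it did not pass (exact p = 0.35).

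**Figure D3:**
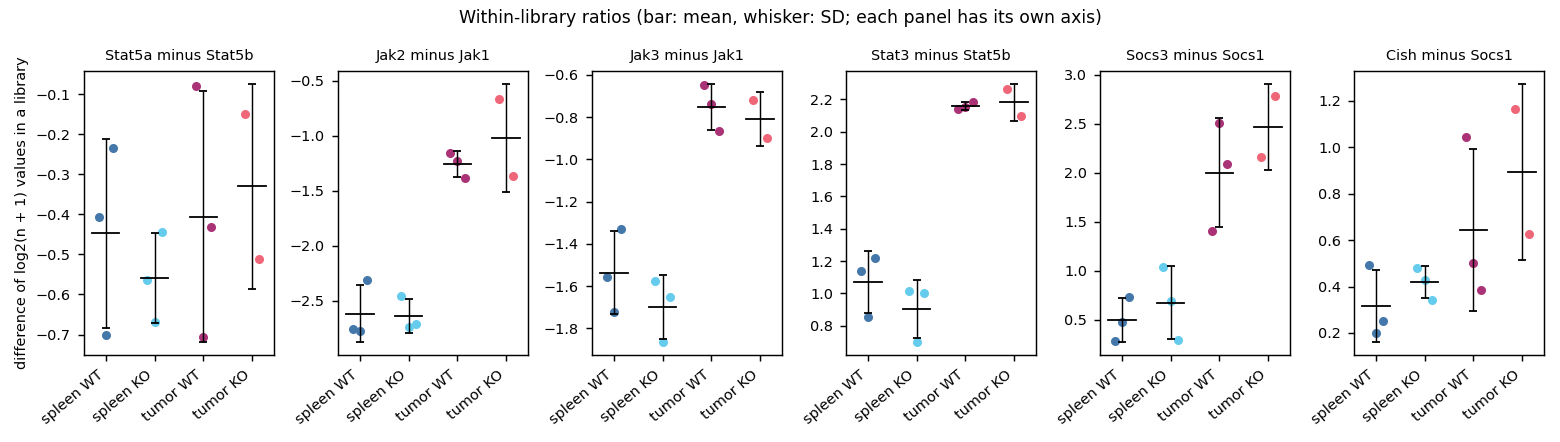
Difference of the log2(n + 1) values of 2 genes in the same library, for 6 pairs, by tissue and genotype; each point is 1 library, the bar is the mean, the whisker the SD, and each panel has its own vertical axis. Jak2 minus Jak1, Jak3 minus Jak1, Stat3 minus Stat5b and Socs3 minus Socs1 do not overlap between spleen and tumor, and Stat3 minus Stat5b spans only 2.10 to 2.26 in tumor.

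The 5 tumor libraries were not alike, and the genes differed in how they followed this. The pattern was seen after the values were examined and is given as a description. The mean log2 value of the 12 T-cell lineage markers in tumor was 7.18, 6.57 and 6.67 in WT and 7.00 and 6.45 in KO, against 7.48 to 7.60 in spleen. Tumor WT 1 and KO 1 were thus highest in T-cell markers, and they were also the highest tumor libraries for the 3 Jak genes, the 3 Stat genes and Cish. These libraries had the lowest summed myeloid levels in tumor, 13.81 and 14.05, against 14.28 to 14.42 in the other 3. Socs3 went the other way, lowest in WT 1 and next lowest in KO 1. Socs1 was highest in WT 3 (6.39), and Socs2 was highest in KO 1 (5.42) with WT 3 (5.20) next. Neither of them followed either order. Subtracting the T-cell marker mean of each library narrowed the spread of Cish in tumor from an SD of 0.36 to 0.13 and that of Stat5a from 0.46 to 0.18. It widened the spread of Socs3 from 0.46 to 0.75, that of Jak1 from 0.09 to 0.23 and that of Socs1 from 0.18 to 0.30. On this relative scale Cish was -1.34 to -0.99 in spleen and 0.02 to 0.35 in tumor, and Socs3 was -1.28 to -0.72 and 0.38 to 2.23. The relative scale carries the fall of the T-cell markers in tumor within it, and why the genes differ in spread was not tested. These markers are not particular to Tregs. In tumor, Foxp3 was highest in KO 2 (6.12), the library lowest in T-cell markers. The summed Treg markers were highest in KO 1 (11.12) and WT 1 (10.92). The summed CD8 T and NK markers were highest in WT 1, at 7.89, against 5.74 to 7.29 in the other tumor libraries.

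**Figure D4:**
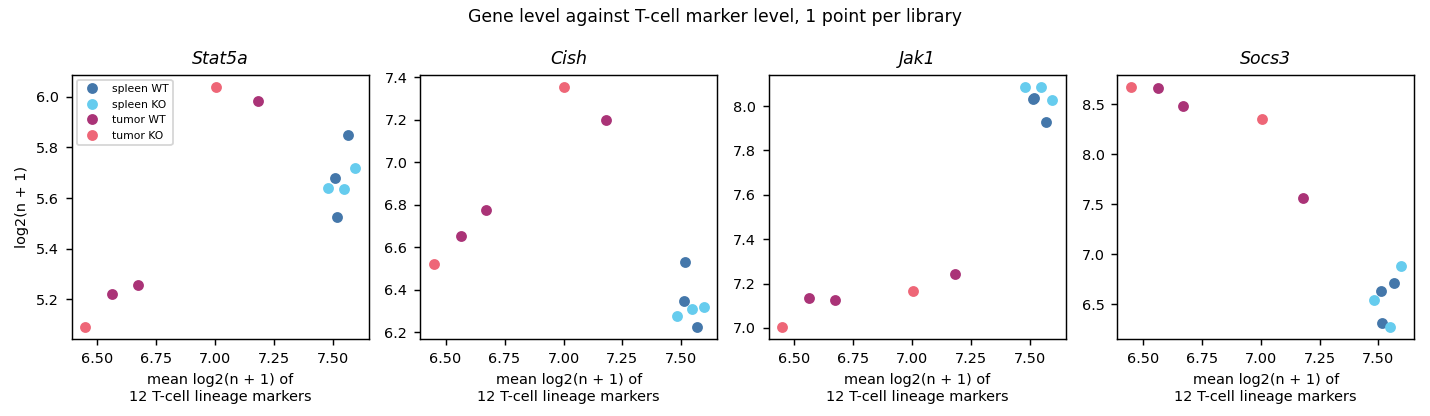
Level of Stat5a, Cish, Jak1 and Socs3 (log2(n + 1), vertical axis) against the mean log2(n + 1) of 12 T-cell lineage markers (horizontal axis), 1 point per library, colored by tissue and genotype. In tumor, Stat5a and Cish are highest and Socs3 is lowest in the 2 libraries with the most T-cell marker signal, which lie at 7.00 and 7.18.

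Whether the KO genotype went with any of these genes was addressed by comparing genotypes within each tissue. Only the KO mice carried the Cre, so the loss of Cd177 and the Cre itself cannot be told apart. None of the 10 genes passed in spleen, in tumor or in the interaction of tissue and genotype. Over all genes, limma with Benjamini-Hochberg adjustment called 0% in spleen, 0.0072% (1 gene) in tumor and 0% in the interaction, and 281, 634 and 383 genes had an unadjusted p below 0.05. KO minus WT differences of the 10 genes ranged from -0.22 to 0.09 in spleen and from -0.19 to 0.28 in tumor. The lowest unadjusted p among them was 0.139 for Socs1 in spleen and 0.135 for Socs1 in tumor. In spleen Socs1 had a level of 6.04, 6.15 and 5.97 in WT and 5.84, 5.85 and 5.97 in KO. It was the 1 gene of the 10 whose genotypes did not overlap in spleen, beside 9.17% of all genes, and in tumor all 10 overlapped, beside 13.6% of all genes that did not. The 95% intervals of the genotype differences reached from -0.66 to 0.59 in spleen and from -0.53 to 0.93 in tumor over the 10 genes. These are the furthest ends over the genes, and the interval of Jak1 in spleen was only -0.10 to 0.24. With 2 or 3 libraries in a group, differences within a gene's own interval are not excluded.

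The difference between tissues was also taken within each genotype, in a fit in which all 11 libraries share one estimate of the spread. In WT, 4 of the 10 genes were called higher, beside 39.2% of all genes, and 1 lower, beside 31.3%. In KO the counts were again 4, beside 36.2%, and 1, beside 29.5%. The genes were Jak2, Stat3, Socs3 and Cish upward and Jak1 downward in both genotypes. Socs3 was higher by 1.68 ± 0.26 (standard error) in WT and 1.95 ± 0.29 in KO. Stat3 was higher by 0.85 ± 0.17 and 0.95 ± 0.19, and Jak1 was lower, at -0.83 ± 0.08 and -0.98 ± 0.08. Jak2 was higher by 0.53 ± 0.20 in WT (adjusted p = 0.032) and 0.63 ± 0.22 in KO (adjusted p = 0.025), and Cish by 0.51 ± 0.20 (adjusted p = 0.039) and 0.64 ± 0.22 (adjusted p = 0.026), all by limma with Benjamini-Hochberg adjustment. Fitted on the libraries of 1 genotype alone, WT gave 4 higher and 1 lower again, and KO gave 3 higher and 1 lower, with Jak2 at 0.63 no longer passing (adjusted p = 0.055). The calls of Jak2 and Cish within a genotype lay near the threshold, and leaving out a single library often ended them. In KO, Jak2 lost its call without spleen KO 2, spleen KO 3 or tumor KO 1, and Cish without any 1 of the spleen KO libraries or tumor KO 1. Without tumor KO 1 they were 0.20 and 0.22 (adjusted p = 0.34 for each). In WT, Jak2 lost its call without spleen WT 1, spleen WT 2, tumor WT 1 or tumor WT 2, and Cish without spleen WT 2, spleen WT 3, any 1 of the spleen KO libraries, tumor WT 1 or tumor WT 3. The spleen KO libraries enter the WT comparison only through the shared estimate of spread. Without 1 of them Cish stayed at 0.51 in WT (limma with Benjamini-Hochberg adjustment, adjusted p = 0.051 to 0.053). Without tumor WT 1, Cish was 0.35 (adjusted p = 0.14) and Jak2 was 0.44 (adjusted p = 0.097). Both signs turned in WT with equal totals, at -0.10 for Cish and -0.07 for Jak2, and neither gene passed in either genotype after quantile normalization, median centring or scaling to equal totals. Stat3 did not pass in either genotype after quantile normalization or with equal totals, and Jak1 did not on the scale of the T-cell markers.

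Other kinase and STAT genes were Stat2, which rose, Stat4 and Tyk2, which fell, and Stat6, which did not pass, at -0.14 (adjusted p = 0.10). Stat6 passed as lower after quantile normalization (-0.63), median centring (-0.36) and scaling to equal totals (-0.76), and as higher on the scale of the T-cell markers (0.62). Stat4, the transducer of IL-12, fell from 5.96 ± 0.15 in spleen to 5.05 ± 0.50 in tumor, by -0.91 (adjusted p = 0.00053), with overlap between the tissues, and it was -0.15 and did not pass on the scale of the T-cell markers (adjusted p = 0.35). Stat2, a transducer of type I interferon signaling, rose from 4.29 ± 0.05 to 4.69 ± 0.07, by 0.40 (adjusted p = 3.62e-05), and turned to -0.20 with equal totals. Tyk2 was lower by -0.21 (adjusted p = 0.0088) and turned to 0.55 on the scale of the T-cell markers. Among 14 other brakes on the pathway, 4 rose and 5 fell (43.1% and 35.9% over all genes), with a median of 0.06. Socs6 rose by 0.70 (adjusted p = 6.38e-06) and Ptpn2, the phosphatase that acts on JAK1, JAK3 and STATs, by 0.51 (adjusted p = 6.84e-05), though with equal totals Socs6 was 0.11 and did not pass (adjusted p = 0.33) and Ptpn2 was -0.10. Usp18, an interferon-induced brake on the type I interferon receptor, fell by 0.67 (adjusted p = 0.00071), Pias1 by 0.29 (adjusted p = 0.0014) and Pias2 by 0.18 (adjusted p = 0.0097), and these 3 turned positive on the scale of the T-cell markers. All of these adjusted p-values are from limma with Benjamini-Hochberg adjustment.

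Receptor chains and cytokines moved over a wider range than the transducers. Of 32 tested receptor chains 19 rose and 4 fell (43.1% and 35.9% over all genes), with a median difference of 0.90. Csf2rb, the beta chain shared by the GM-CSF, IL-3 and IL-5 receptors, rose from 1.42 ± 0.65 to 5.80 ± 0.22, by 4.38 (adjusted p = 9.21e-09). Il13ra1 rose by 3.86 (adjusted p = 1.36e-10) and Csf2ra by 3.84 (adjusted p = 2.98e-10). Csf2rb and Csf2ra are abundant in myeloid cells, whose markers rose with them. The part of such cells was not tested for these genes or for any other receptor chain or cytokine named here. Il27ra, which signals through gp130, fell from 6.51 ± 0.04 to 4.85 ± 0.35, by 1.65 (adjusted p = 8.85e-08). Il9r fell by 1.42 (adjusted p = 7.66e-05) and Il6ra, the IL-6 binding chain, by 1.28 (adjusted p = 2.11e-08). Il2ra, a gene of the sort gate, had 7.26 ± 0.18 and 7.00 ± 0.38, a difference of -0.27 that did not pass (adjusted p = 0.12). Il2ra passed as lower without tumor KO 1 (-0.395), with equal totals (-0.89) and under quantile normalization (-0.93) or median centring (-0.48), and as higher on the scale of the T-cell markers (0.50). Of 26 cytokines 15 were tested, of which 11 rose and 1 fell (again beside 43.1% and 35.9%), with a median of 1.84. Csf2, which encodes GM-CSF, rose by 3.78 (adjusted p = 2.95e-08) and Osm, an IL-6 family cytokine, by 3.55 (adjusted p = 4.10e-09). Il10, an inhibitory cytokine of Tregs and macrophages, rose from 3.07 ± 0.64 to 6.01 ± 0.40, by 2.95 (adjusted p = 7.04e-07). These adjusted p-values too are from limma with Benjamini-Hochberg adjustment.

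Genes known as STAT5 or STAT3 targets were counted from lists that share members, Bcl2, Bcl2l1, Mcl1, Pim1 and Myc among them. Of 12 STAT5 targets 5 rose and 5 fell, with a median of -0.09, and of 19 tested STAT3 targets 16 rose and 2 fell, with a median of 1.45. Over all genes 43.1% rose and 35.9% fell, with a median of 0.08, and the STAT5 counts lie near these shares. Bcl2l1 had a level of 4.26 to 4.65 in spleen, and in tumor 6.67, 6.71 and 6.86 in WT and 6.63 and 6.72 in KO. It rose by 2.28 with a standard error of 0.077 (limma with Benjamini-Hochberg adjustment, adjusted p = 6.68e-11). Bcl2 had 5.95 to 6.34 in spleen, and in tumor 4.03, 4.05 and 3.78 in WT and 3.79 and 3.05 in KO. It fell by 2.43 with a standard error of 0.158 (adjusted p = 1.60e-08). These survival genes, which both lists hold, moved in opposite directions, and neither overlapped between the tissues. Pim1, a kinase gene induced by STAT5 and STAT3, rose by 1.45 (adjusted p = 3.48e-07). The D-type cyclins split, with Ccnd1 higher by 4.40 (adjusted p = 3.19e-08) and Ccnd3 and Ccnd2 lower, at -1.14 (adjusted p = 7.31e-07) and -0.84 (adjusted p = 7.67e-08). Ccnd1 had only 1.92 ± 0.62 in spleen, and in tumor it was lowest in WT 1 (5.64) and KO 1 (5.88). Those libraries also had the lowest summed myeloid and fibroblast levels in tumor. The part of other cells in the rise of Ccnd1 was not tested. On the scale of the T-cell markers neither Ccnd3 (-0.37, adjusted p = 0.060) nor Ccnd2 (-0.07, adjusted p = 0.63) passed. Foxp3, a STAT5 target in Tregs, was lower by -0.85 (adjusted p = 0.0036), with overlap, and by -0.09 on the scale of the T-cell markers (adjusted p = 0.74). Its tumor values were 4.72 to 5.54 in WT and 5.87 and 6.12 in KO. The genotypes thus did not overlap in tumor, as was so for 13.6% of all genes. Of the tumor libraries only KO 2 (6.12) reached the spleen range of Foxp3, 5.98 to 6.75. Among STAT3 targets, Vegfa rose by 6.93 (adjusted p = 1.32e-12) and Timp1 by 5.25 (adjusted p = 6.62e-10). Vegfa and Timp1 are also expressed by macrophages, fibroblasts and tumor cells, and the part of such cells was not tested.

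**Figure D5:**
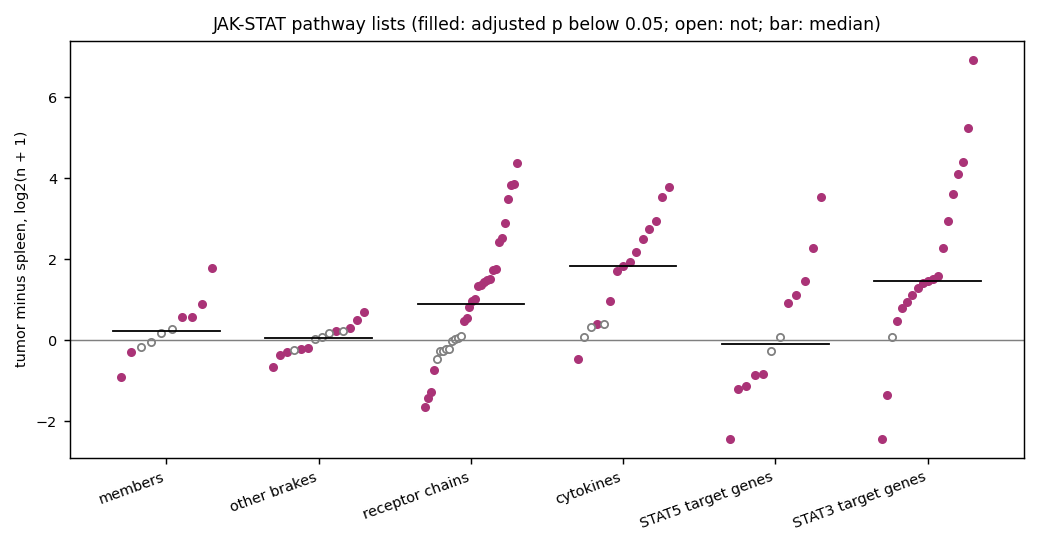
Tumor minus spleen difference of log2(n + 1) for every tested gene of 6 lists, with the 10 genes described here as the leftmost list; filled points passed the test, open points did not, and the bar is the list's median. The 10 genes span -0.90 to 1.79, while receptor chains reach 4.38 and STAT3 targets 6.93.

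The genes whose levels ran most closely with each of the 10 were found by Pearson correlation over the 11 libraries. The libraries share the tissue contrast, so r mainly follows it for genes that differ between tissues. Jak1 ran with Cnst (r = 0.998) and Sidt1 (r = 0.997), both lower in tumor. Stat3 ran with Tex2 (r = 0.986) and Rora (r = 0.986), and Socs3 with Zfp36 (r = 0.991) and Gbp5 (r = 0.991), all higher in tumor. Zfp36 encodes a protein that destabilizes inflammatory transcripts. Stat5a, which did not pass between tissues, ran with Cd200 (r = 0.964) and Sh2d2a (r = 0.934), a T-cell adaptor gene. Cish ran with Tmprss6 (r = 0.961) and Mrpl19 (r = 0.953), and Jak2 with Sec61a1 (r = 0.967) and Clk3 (r = 0.961). Jak3 was nearest to Btbd19 (r = 0.933) and Suz12 (r = 0.896), and Stat5b to Slc2a3 (r = 0.929) and Gm16253 (r = 0.909). Socs1 was nearest to Grcc10 (r = 0.853) and Gldc (r = 0.837), and Socs2 to Heatr9 (r = 0.936) and Chchd10 (r = 0.866).

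Some of the 10 genes share sequence with others, which bears on how reads were assigned. On GRCm38, with GENCODE M21 models, Stat5b (chr11:100780731-100850724), Stat5a (chr11:100859351-100885169) and Stat3 (chr11:100885098-100939540) lie side by side, and exons of Stat5a and Stat3 overlap on opposite strands. Stat5a shares 11.5% of its 31-base transcript words with Stat5b, and Stat5b shares 15.1% of its words with Stat5a. How far this sharing affects their separate levels was not tested. Jak3 (chr8:71676296-71690575) shares 8.29% of its words with other genes, chiefly Insl3, whose exons overlap on the same strand and whose level was 4.45 in spleen and 3.53 in tumor. Cish (chr9:107296026-107302784) shares 10.4%, chiefly with Gm17041 and Gm17040, which overlap it on the opposite strand, and Gm17040 had a level of 1.60 in spleen and 1.21 in tumor. Whether the libraries kept strand is not given in the sources used here. It is thus not known whether reads from sequence shared on opposite strands could be told apart. Socs2 (chr10:95385362-95417180) shares 6.55%, chiefly with Gm9847. Jak2 (chr19:29251828-29313080), Socs1 (chr16:10782240-10785536) and Socs3 (chr11:117966079-117970047) share none, and Jak1 (chr4:101152367-101265282) shares 0.0273%, though its exons overlap Raver2 on the opposite strand.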

How the data were processed

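RNA of sorted Tregs was measured in 11 libraries, whose labels give the tissue and genotype used for grouping. After rRNA depletion and single-end sequencing, the authors estimated transcript abundance with kallisto on mm10, aggregated by symbol in sleuth 0.30.0, and deposited log2(n + 1) values. Neither the kallisto version nor the annotation is given in the sources used here. The values could not be taken as raw counts, which left out count models and counting intervals.

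A minimum mean of 0.5 on the log2 scale removed 707 of 14604 genes. limma 3.58.1 in R 4.3.3 (eBayes with a mean-variance trend) compared tissues with genotypes pooled, and a 4-group fit gave the other comparisons. Benjamini-Hochberg adjustment covered all 13897 genes tested. Exact permutation tests (scipy 1.17.1) were run over libraries. The fit was tested on simulated data. The replicate numbers were not used as pairs in the main fits and served as a block in an alternative. The same-numbered spleen and tumor libraries had correlations of deviations from group means of -0.13 to 0.04. In groups of 2 or 3 libraries such deviations are tied to each other, so they cannot show whether the numbers mark pairs. The members and lists were chosen with earlier results of these data known. Genes named are the 10 members, Bcl2l1, Bcl2, Il2ra, per pathway list up to 3 of the largest rises and up to 3 of the largest falls that passed without overlap, the 2 nearest genes per member, and the 2 most abundant markers in tumor, given here for the myeloid and fibroblast lists, with the other marker lists as counts. Tyk2, Stat4, Stat6 and Foxp3 were named after their values were seen, and a few listed genes are not reported here. Promoters came from RefSeq and positions from GENCODE M21. Alternatives changed the scaling, pseudocount, filter, variance model, threshold, samples and covariates.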

Additional observations from a re-analysis of the deposited data

Results flagged for a closer look

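In groups of 4 to 10 libraries, a library was singled out where its gap to the nearest other library took up an unusually large part of the group's range. Of 96 groups examined 8 had such a library, where chance alone gives about 1 in 20, or 4.8. Of the 10 JAK, STAT and SOCS genes, Jak1 alone had one, in spleen WT 3 at 7.93 beside 8.03 to 8.09 in the other spleen libraries, which still lay above all tumor libraries. In tumor WT 1, Csf2rb was 5.41 beside 5.86 to 5.95 and Osm was 5.97 beside 6.93 to 7.20, and this library also had the lowest Socs3 and the lowest summed myeloid level in tumor. Osm in spleen KO 2 was 3.74 beside 3.09 to 3.31, and Il6ra in spleen WT 3 was 5.67 beside 5.90 to 5.93. Bcl2 in tumor KO 2 was 3.05 beside 3.78 to 4.05. In tumor KO 1, Ccnd2 was 6.22 beside 6.04 to 6.08 and Col3a1 was 7.93 beside 8.89 to 9.21.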

How the results depend on the processing

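Scaling changed the sign of single genes, and stricter thresholds changed the number of calls. With equal library totals the tumor minus spleen difference changed sign for Jak2 (-0.050), Socs1 (-0.43), Socs2 (-0.33), Cish (-0.055), Stat2 (-0.20) and Ptpn2 (-0.10), and in WT for Jak2 (-0.071) and Cish (-0.096). Quantile normalization turned Socs1 (-0.19) and, in WT, Cish (-0.038), and median centring turned Socs1 (-0.029). Centring on the T-cell lineage markers turned Jak3 (0.71), Stat5a (0.61), Stat5b (0.48), Usp18 (0.091), Pias1 (0.47), Pias2 (0.58), Il2ra (0.50), Tyk2 (0.55) and Stat6 (0.62), and it raised the number of the 10 genes called to 9 in WT and 8 in KO. Leaving out tumor KO 2 turned Jak3 (0.011), whose range with 1 library left out was -0.11 to 0.011. A Bonferroni threshold called 2 of the 10 genes, and 1 in each genotype, with 5051 of all genes in place of 10971, 2449 in place of 9794 in WT and 1857 in place of 9127 in KO. A required log2 difference of at least 1 called 1 of the 10 in each of these comparisons, and 4556, 4646 and 4387 of all genes. With 1 library left out, 5 to 7 of the 10 were called in the pooled comparison (10614 to 10978 of all 13897 genes), 3 to 5 in WT (9093 to 9988) and 3 to 6 in KO (7559 to 9360), and Cish minus Socs1 was 0.27 to 0.47 (exact permutation, adjusted p up to 0.080). Leaving out a tumor KO library leaves 1 there, whose spread is then borrowed from the remaining groups. The replicate number as a block called 6 of the 10 (4 higher, 2 lower), 5 within each genotype and 0 in the interaction. Of 1300 values of single genes under alternatives, 1165 kept both direction and call, 95 lost the call in the same direction, 19 gained it and 21 changed sign, and 19 of 52 single-gene results kept them under every alternative. The cause was not tested. No genotype alternative called any of the 10 genes. The depth of each library is not known here, and the spread between libraries limits these values.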
